A study of Homo sapiens with 24 samples.

Results

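The 9 genes described here are HMOX1, NQO1, GCLC, GCLM, TXN, TXNRD1, SRXN1, OSGIN1 and NFE2L2. They were chosen by name, as NFE2L2 itself, which encodes the transcription factor NRF2, and 8 genes that NRF2 is known to activate, out of 24847 genes with a symbol on the array. Every probe whose RefSeq transcript mapped to them was taken, which gave 1 probe per gene. Of the 9, 8 were measured above background on all 24 arrays, and the NFE2L2 probe was above background on none.

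NRF2 is held in the cytoplasm by KEAP1, which directs its degradation. Oxidants and electrophiles modify KEAP1, so that NRF2 accumulates, enters the nucleus with a small MAF partner and binds antioxidant response elements (AREs) in the promoters and enhancers of its targets, where BACH1 acts as a competing repressor. The targets make glutathione, keep thioredoxin reduced, break down heme and reduce quinones, and in glioblastoma this program is known for its part in resistance to oxidative and drug stress.

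The cells were U251, an established human glioblastoma line, exposed to G-1, an agonist of the G-protein-coupled estrogen receptor GPER. There were 6 groups of 4 arrays: DMSO (the vehicle), G-1 IC50 (the inhibitory concentration for the line, below 1 µM) and G-1 1 µM, each for 24 h and for 72 h. All cells, controls included, had first been deprived of steroid hormones in charcoal-stripped serum for 24 h, and all came from a single line. The arrays were 1-colour, and each value below is the log2 signal of a probe relative to the 75th percentile of its array, so that 1 unit is a 2-fold difference and 0 is the level of that percentile.

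The ARE core that was searched reads TGACNNNGC, on both strands, in the RefSeq promoter table (build GRCh38.p14), which holds 250 bases before and 50 after each gene start. HMOX1 was not found in that table. The other 8 genes had 10 promoters in the table, and 2 genes had a match (GCLM and TXNRD1). Against 13.4% of all 35116 promoters in the table, 3 of the 10 had one. These promoters are shown because they are the members with a match, from 150 bases before the start to the start itself, with the match in capitals. The AP-1 motif TGACTCA, which can overlap an ARE, was found in 1 of the 10 promoters (that of OSGIN1) against 4.95% of all promoters. It overlapped no ARE match here. The search says nothing of distant enhancers or of binding.
GCLM, minus strand, chr1:93909430-93909580: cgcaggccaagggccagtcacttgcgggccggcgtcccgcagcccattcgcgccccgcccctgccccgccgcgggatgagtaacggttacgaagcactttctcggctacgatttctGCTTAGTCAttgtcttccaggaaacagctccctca
TXNRD1, upstream start, plus strand, chr12:104215629-104215779: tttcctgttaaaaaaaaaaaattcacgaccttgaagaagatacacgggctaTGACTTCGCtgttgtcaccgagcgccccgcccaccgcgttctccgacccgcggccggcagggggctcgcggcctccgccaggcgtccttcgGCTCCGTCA
TXNRD1, downstream start, plus strand, chr12:104286882-104287032: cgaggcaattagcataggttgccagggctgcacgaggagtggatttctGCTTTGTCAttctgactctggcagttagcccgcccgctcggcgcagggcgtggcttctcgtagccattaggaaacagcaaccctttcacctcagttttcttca
The match began 34 bases before the start in GCLM, 99 and 8 bases before the upstream start of TXNRD1, and 102 bases before its downstream start.

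The arrays filled 3 slides of 8. Every array with G-1 1 µM was on the third slide, read in a second scanning session, so, at a given duration, the contrast of 1 µM with DMSO or G-1 IC50 and any session difference cannot be told apart. The comparison of 72 h with 24 h within G-1 1 µM lies on a single slide, and the difference between the 1 µM effects at 72 h and 24 h is free of any constant session offset. Spots well above background made up 41.1% to 44.5% of an array in the first session and 38.0% to 40.7% in the second. All 8 glioma or astroglial markers examined (VIM, NES, CD44, S100B, GFAP, SOX9, FABP7 and SLC1A3) were above background on all 24 arrays. Of the markers of other cell types, CD14 (1 of 4 microglia or leukocyte markers measured), KRT8 and KRT18 (2 of 4 epithelial) and RBFOX3, SNAP25 and GAP43 (3 of 5 neuronal) were also above background on all 24 arrays, as were 0 of 4 endothelial markers. Above background on no array were PTPRC, AIF1 and ITGAM, EPCAM and CDH1, SYP and STMN2, and the endothelial PECAM1 and TEK.

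HMOX1 encodes heme oxygenase-1, which splits heme into biliverdin, carbon monoxide and iron. After 72 h, its log2 signal was 4.84, 4.84, 4.82 and 4.86 on the 4 DMSO arrays and 6.12, 6.43, 6.23 and 6.11 on the 4 arrays of G-1 1 µM. Every 1 µM array was above every DMSO array, by a gap many times the spread in either group. HMOX1 was 2.61-fold higher in G-1 1 µM than in DMSO at 72 h, a log2 difference of 1.38 (SE 0.13, 95% confidence interval 1.12 to 1.64, limma adjusted p = 8.81e-09). After 24 h, by contrast, the values were 4.95, 4.68, 5.25 and 5.20 in DMSO and 5.04, 5.21, 5.30 and 4.92 in G-1 1 µM. The groups overlapped at 24 h, with a log2 difference of 0.10 (SE 0.13, interval -0.16 to 0.36, limma adjusted p = 0.574).

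The 1 µM effect on HMOX1 was larger at 72 h than at 24 h by 1.28 on the log2 scale (SE 0.18, limma adjusted p = 1.87e-05). Within G-1 1 µM, all on the third slide, HMOX1 was 2.15-fold higher at 72 h than at 24 h (log2 difference 1.10, SE 0.13, limma adjusted p = 6.7e-07). HMOX1 was lowest in DMSO 72 h and highest in G-1 1 µM 72 h, and among the 4 groups between them in that order (G-1 IC50 72 h, DMSO 24 h, G-1 IC50 24 h, then 1 µM at 24 h, means 5.01 to 5.12) no neighbours differed by more than their pooled SD.

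SRXN1 encodes sulfiredoxin, which restores over-oxidized peroxiredoxins. Its log2 signal was 4.14, 4.14, 4.23 and 4.30 in DMSO and 4.85, 4.77, 4.89 and 4.84 in G-1 1 µM after 72 h. After 24 h, it was 4.18, 4.20, 4.24 and 4.25 in DMSO and 4.50, 4.42, 4.60 and 4.49 in G-1 1 µM. The 1 µM arrays were above the DMSO arrays at both durations, with no overlap. SRXN1 rose 1.55-fold at 72 h (log2 difference 0.64, SE 0.05, limma adjusted p = 2.02e-09) and 1.22-fold at 24 h (log2 difference 0.29, SE 0.05, limma adjusted p = 5.55e-04). The call at 24 h was lost when arrays were scaled to their 50th percentile (adjusted p = 0.0777).

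The 1 µM effect on SRXN1 was larger at 72 h by 0.35 log2 (SE 0.07, limma adjusted p = 0.00116). With the 50th percentile it was as large (0.36 log2) but missed the threshold (adjusted p = 0.0593). Within G-1 1 µM, SRXN1 was 1.26-fold higher at 72 h than at 24 h (limma adjusted p = 3.25e-05). SRXN1 thus stepped up from G-1 IC50 24 h to G-1 1 µM 24 h and again to G-1 1 µM 72 h, each time with no overlap between the 4 arrays of one group and the 4 of the next. The lower 3 groups, DMSO 72 h, DMSO 24 h and G-1 IC50 72 h (means 4.20 to 4.24), differed by less than their pooled SD.

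TXN encodes thioredoxin, the small protein that reduces disulfides in other proteins, and TXNRD1 encodes the cytosolic selenoenzyme that regenerates it with NADPH. TXN was 7.42, 7.35, 7.39 and 7.36 in DMSO and 7.77, 7.67, 7.58 and 7.68 in G-1 1 µM after 72 h, again without overlap. It rose 1.23-fold (log2 difference 0.30, SE 0.06, limma adjusted p = 1.67e-04), whereas at 24 h the difference was 0.11 log2 (SE 0.06, limma adjusted p = 0.144). The 1 µM effect was 0.18 log2 larger at 72 h than at 24 h (SE 0.08, limma adjusted p = 0.0995), a difference that passed with quantile normalization (0.27 log2, adjusted p = 0.00802) and with normexp (0.26 log2, adjusted p = 0.0205).

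TXNRD1 was 1.59, 1.50, 1.74 and 1.57 in DMSO and 2.15, 1.95, 2.04 and 1.89 in G-1 1 µM after 24 h. After 72 h, it was 1.84, 1.78, 1.85 and 1.82 in DMSO and 1.98, 1.93, 2.24 and 2.07 in G-1 1 µM. All 1 µM arrays were above all DMSO arrays of the same duration. TXNRD1 rose 1.33-fold at 24 h (log2 difference 0.41, SE 0.08, limma adjusted p = 6.41e-04) and 1.18-fold at 72 h (log2 difference 0.23, SE 0.08, limma adjusted p = 0.0103). The call at 72 h was lost with the 50th percentile (adjusted p = 0.0971) and without replicate 3 of G-1 1 µM 72 h (adjusted p = 0.0533). The 2 effects were not shown to differ (-0.18 log2 at 72 h relative to 24 h, interval -0.40 to 0.04, limma adjusted p = 0.220).

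NQO1 encodes a quinone reductase that is among the most used markers of NRF2 activity, and it went down. Its log2 signal after 72 h was 1.13, 0.99, 0.93 and 0.89 in DMSO and 0.40, -0.10, 0.59 and 0.35 in G-1 1 µM. No 1 µM array reached the lowest DMSO array, although replicate 2 of G-1 1 µM was well below the other 3. NQO1 was 1.59-fold lower (log2 difference -0.67, SE 0.16, interval -1.01 to -0.34, limma adjusted p = 0.00111).

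After 24 h, NQO1 was 1.10, 1.35, 1.30 and 1.44 in DMSO and 0.63, 0.64, 1.14 and 1.13 in G-1 1 µM, where the groups overlapped in a narrow range. The difference of -0.41 log2 (SE 0.16) missed the threshold (limma adjusted p = 0.0623). When replicate numbers entered the fit as a block, a pairing read from the data since no label states it, the difference passed (adjusted p = 0.0272). It also passed with the intensity trend in limma (adjusted p = 0.0468). Of the 24 arrays left out in turn, only 4 gave a pass (adjusted p 0.0391 to 0.0433). These were G-1 1 µM 24 h replicates 3 and 4, G-1 IC50 24 h replicate 4 and G-1 1 µM 72 h replicate 2. Within G-1 1 µM, NQO1 was 1.49-fold lower at 72 h than at 24 h, with no overlap (log2 difference -0.58, SE 0.16, limma adjusted p = 0.00694). The 1 µM effect on NQO1 was not shown to differ between durations (-0.27 log2, interval -0.74 to 0.21, limma adjusted p = 0.405), and DMSO itself was lower at 72 h than at 24 h by a difference that missed the threshold (-0.31 log2, limma adjusted p = 0.323).

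GCLC and GCLM encode the catalytic and the modifier subunit of glutamate-cysteine ligase, the rate-limiting enzyme of glutathione synthesis. GCLC was 2.43, 2.67, 2.47 and 2.83 in DMSO and 2.13, 2.04, 2.06 and 2.00 in G-1 1 µM after 72 h. The 1 µM arrays lay close together and below all DMSO arrays. GCLC fell 1.46-fold (log2 difference -0.54, SE 0.10, limma adjusted p = 9.31e-05).

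After 24 h, GCLC was 2.75, 2.34, 2.63 and 2.61 in DMSO and 2.17, 2.20, 2.36 and 2.34 in G-1 1 µM. The groups overlapped through replicate 2 of DMSO alone, and GCLC fell by 0.31 log2 (SE 0.10, limma adjusted p = 0.0245). This call was lost without DMSO replicate 1, 3 or 4 or G-1 1 µM replicate 1 or 2 (adjusted p 0.0524 to 0.0801), in the fit on the arrays of the 2 groups alone (0.0567) and with the slide as a random block (0.0553). The difference between the changes at 72 h and 24 h missed the threshold (-0.23 log2, interval -0.52 to 0.07, limma adjusted p = 0.239) and passed it with the slide as a block (-0.29 log2, adjusted p = 0.0474).

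GCLM did not pass the threshold in any comparison, although its difference between the doses at 72 h passed under several alternatives. Its 4 values in a group ranged from 1.68 to 2.29 in DMSO 72 h and from 1.83 to 2.03 in G-1 1 µM 72 h. The difference at 72 h was -0.15 log2 (SE 0.13, interval -0.42 to 0.12, limma adjusted p = 0.327), and at 24 h it was 0.00 (SE 0.13, interval -0.26 to 0.27, limma adjusted p = 0.981). At 72 h its interval overlapped that of GCLC (-0.75 to -0.33), and the difference between the 2 subunits was not tested. In the order of its 6 group means, from 1.93 in G-1 1 µM 72 h to 2.21 in G-1 IC50 72 h, no neighbours differed by more than their pooled SD.

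OSGIN1 encodes a growth inhibitor induced by oxidative stress. Its values ranged from -0.28 to -0.01 in DMSO 72 h and from -0.29 to 0.27 in G-1 1 µM 72 h, with full overlap. The differences of 1 µM from DMSO were 0.15 log2 at 72 h (SE 0.14, interval -0.14 to 0.44, limma adjusted p = 0.355) and 0.28 at 24 h (SE 0.14, limma adjusted p = 0.146). As for GCLM, no neighbours in the order of its 6 group means differed by more than their pooled SD.

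NFE2L2 was not tested, and no fold is given for it, since its only probe was not well above background on any array. This bounds the signal of 1 probe and does not show that the transcript was missing. NRF2 is regulated mainly through protein stability, which arrays do not measure.

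**Figure D1:**
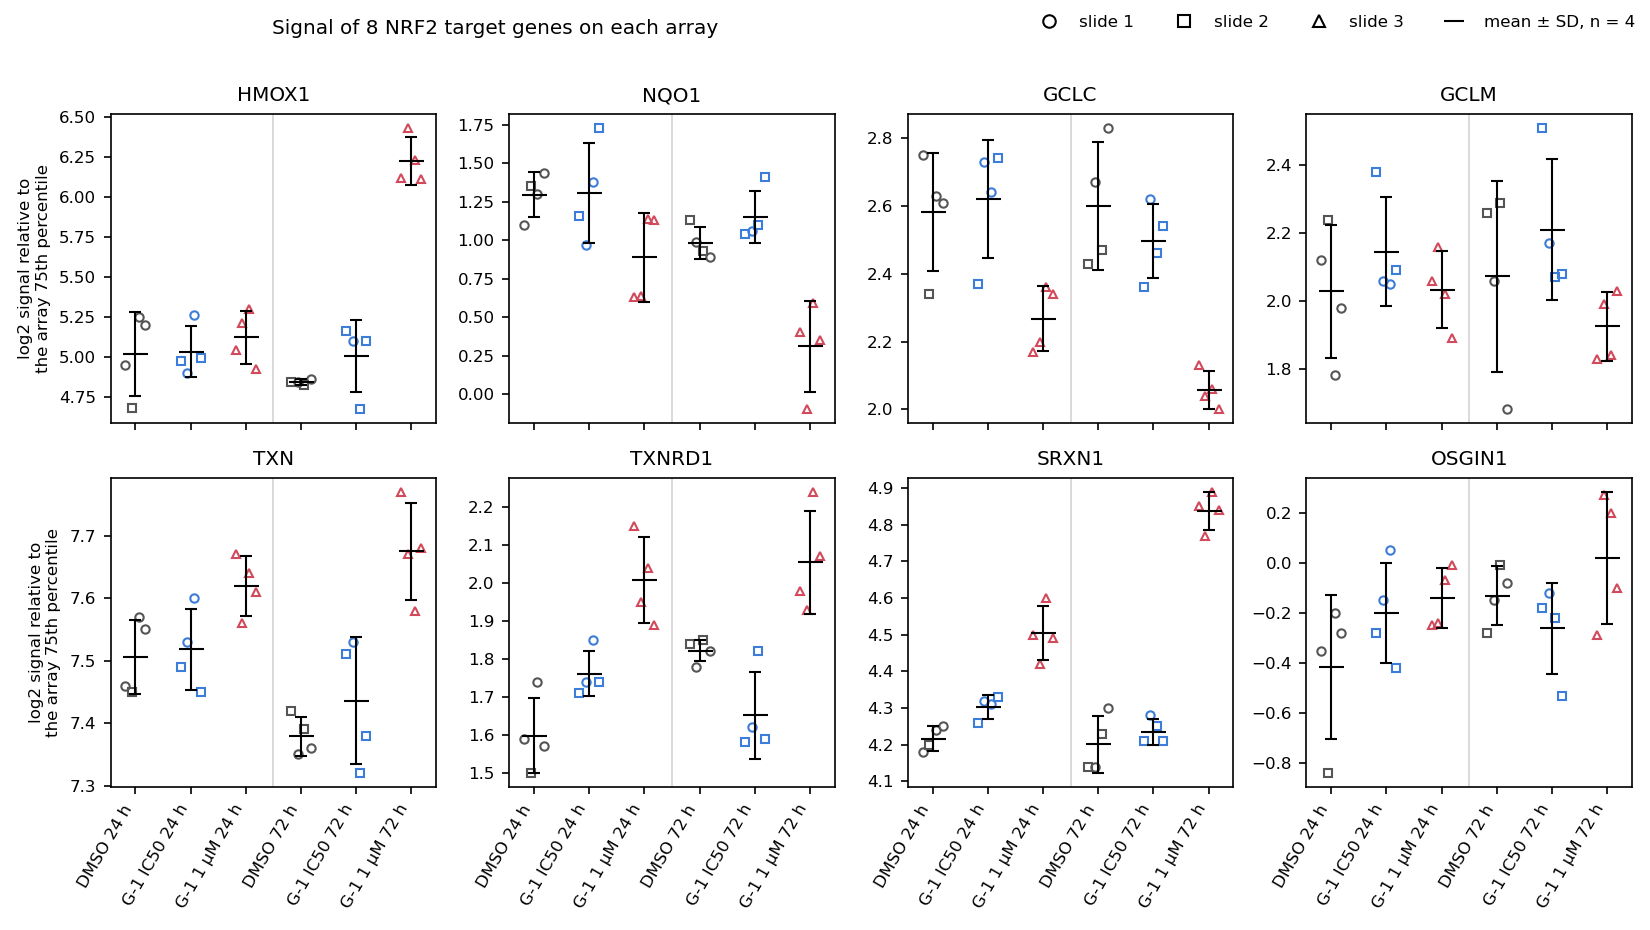
Log2 signal above the array's 75th percentile (y axis, a scale of its own per gene) for 8 genes in the 6 groups (x axis), with 1 marker per array, shaped by slide, and the mean ± SD of the 4 arrays in black. HMOX1 stands apart in G-1 1 µM 72 h, where its arrays lie between 6.11 and 6.43, SRXN1 steps up at 24 h and again at 72 h, and NQO1 and GCLC are lowest in G-1 1 µM 72 h.

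Of the 8 genes tested, 6 differed between G-1 1 µM and DMSO at 72 h, of which 4 were higher (HMOX1, SRXN1, TXN and TXNRD1) and 2 lower (NQO1 and GCLC). This share must be read against all 22970 probes tested, of which 64.3% were called in the same comparison, 30.2% of them higher and 34.1% lower as shares of the total. With an absolute fold change above 2 as well, HMOX1 was the only member left, against 14.0% of all probes. The 4 arrays of the 2 groups did not overlap for 6 of the 8 genes, against 56.6% of all probes. For each of these 6 genes, the exact permutation test of 4 arrays against 4 (two-sided) gave p = 0.0286, the smallest it can give. That value follows from the lack of overlap and adds nothing to it. The median log2 difference was 0.19 over the 8 genes and -0.04 over all probes tested.

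At 24 h, 3 of the 8 genes differed (SRXN1 and TXNRD1 higher, GCLC lower), against 29.1% of all probes. The groups did not overlap for 2 of the 8 (SRXN1 and TXNRD1), against 27.9% of all probes, and no member passed an absolute fold change of 2, against 2.66%. The median log2 difference was 0.11 over the 8 genes and 0.01 over all probes. The 1 µM effect differed between 72 h and 24 h for 2 of the 8, HMOX1 and SRXN1, against 31.0% of all probes, and by more than 2-fold for HMOX1 alone, against 6.29%. Between 72 h and 24 h within G-1 1 µM, 3 of the 8 genes differed (HMOX1 and SRXN1 higher, NQO1 lower), against 39.5% of all probes, 1 of them by more than 2-fold (HMOX1, against 5.18%), and the arrays did not overlap for 4 of the 8, against 36.0%. The fourth was GCLC, with a difference of -0.21 log2 (limma adjusted p = 0.104), which passed with the slide as a block (adjusted p = 0.0316).

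**Figure D2:**
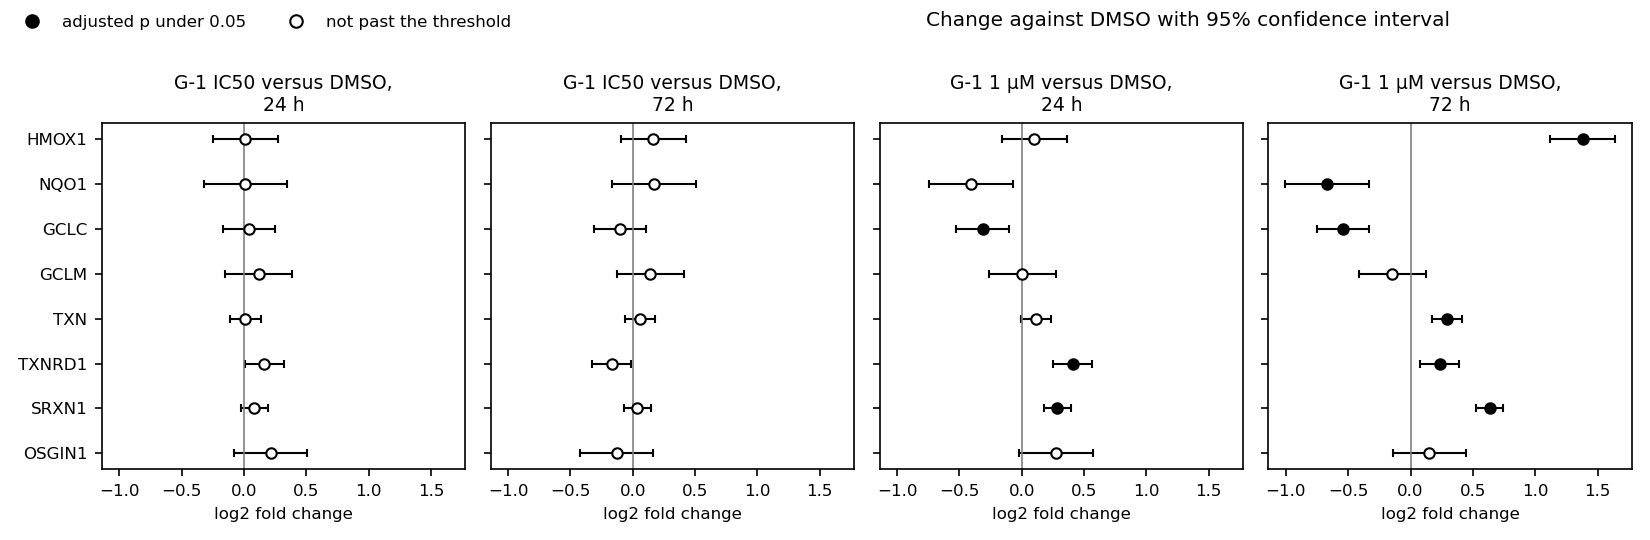
Log2 fold change against DMSO of the same duration (x axis) for 8 genes (y axis), with 95% confidence intervals from limma, filled where the adjusted p was under 0.05. Both G-1 IC50 panels hold only open points, with intervals within -0.42 and 0.51 log2, of which those of TXNRD1 exclude 0. At 1 µM the 72 h panel holds 6 filled points, 4 to the right of 0 and 2 to the left.

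With G-1 IC50, 0 of the 8 genes passed the threshold in limma at 24 h (0.192% of all probes were called) and 0 at 72 h (0.688%). The methods' t-test with Benjamini-Hochberg adjustment also called 0 at each duration, and 1 gene at each duration, TXNRD1, was under an unadjusted p of 0.05. TXNRD1 was 0.16 log2 higher than DMSO at 24 h (SE 0.08, limma adjusted p = 0.996) and 0.17 lower at 72 h (log2 difference -0.17, SE 0.08, limma adjusted p = 0.500). Within slide 1, the TXNRD1 difference was 0.17 at 24 h (2 G-1 IC50 arrays against 3 of DMSO) and -0.18 at 72 h (1 against 2). Within slide 2, it was 0.22 at 24 h (2 against 1) and -0.18 at 72 h (3 against 2). These differences rest on too few arrays to show agreement between slides.

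HMOX1 differed between G-1 IC50 and DMSO by 0.01 log2 at 24 h (interval -0.25 to 0.27) and by 0.17 at 72 h (interval -0.10 to 0.43, limma adjusted p = 0.770). At 72 h, its values in G-1 IC50 were 5.16, 5.10, 4.67 and 5.10, so 3 arrays were above all DMSO arrays and replicate 3 was below them. The intervals of all 8 genes at both durations stayed within -0.42 and 0.51 log2. The groups did not overlap for 1 of the 8 genes at 24 h (SRXN1, 4.26 to 4.33 in G-1 IC50), against 2.65% of all probes, and for 0 at 72 h, against 7.09%. The effect of G-1 IC50 differed between durations for 0 of the 8 genes, against 0.00871% of all probes, with 1 gene, TXNRD1, under an unadjusted p of 0.05.

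The 2 doses are the same compound and were compared at each duration, with the same confounding of dose and session. At 72 h, G-1 1 µM differed from G-1 IC50 for 6 of the 8 genes, against 63.3% of all probes, and by more than 2-fold for 1 (HMOX1), against 13.0%. HMOX1 was 1.22 log2 higher, SRXN1 0.60, TXNRD1 0.40 and TXN 0.24, and NQO1 and GCLC were lower, with log2 differences of -0.84 and -0.44 (limma adjusted p 5.39e-09 to 0.00130). The arrays did not overlap for 7 of the 8, against 54.3%, the seventh being GCLM (-0.28 log2, limma adjusted p = 0.0598). The GCLM difference passed with the 50th percentile (-0.39 log2, adjusted p = 0.0338), normexp (-0.35 log2, adjusted p = 0.0132), the intensity trend in limma (adjusted p = 0.0465) and the replicate block (adjusted p = 0.0393), and without DMSO 72 h replicate 4 (adjusted p = 0.0305) or G-1 IC50 72 h replicate 3 (adjusted p = 0.0481). The TXN call was lost with the 50th percentile (adjusted p = 0.195).

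At 24 h, the doses differed for 3 of the 8 genes, against 25.4% of all probes, and for 0 by more than 2-fold, against 2.66%. The same 3 genes were those whose arrays did not overlap, against 25.9%. TXNRD1 was 0.25 log2 higher at 1 µM (limma adjusted p = 0.0202), SRXN1 0.20 higher (limma adjusted p = 0.00761), and GCLC lower, with a difference of -0.35 (limma adjusted p = 0.0147). With the 50th percentile only GCLC was left of these, and the SRXN1 call was also lost with normexp (0.14 log2, adjusted p = 0.0865) and with the arrays of the 2 groups alone (adjusted p = 0.0604). The TXNRD1 call was also lost with the arrays of the 2 groups alone (adjusted p = 0.0557) and with the slide as a random block (adjusted p = 0.051). The NQO1 difference of -0.42 log2 missed the threshold (limma adjusted p = 0.0605) and passed it with the replicate block (adjusted p = 0.0262). It also passed with the intensity trend in limma (adjusted p = 0.0451) and without the filter on dim probes (adjusted p = 0.0464). Of the 24 arrays left out in turn, only 4 gave a pass (adjusted p 0.0253 to 0.0427). These were G-1 1 µM 24 h replicates 3 and 4, G-1 IC50 24 h replicate 2 and G-1 1 µM 72 h replicate 2. Without replicate 4 of G-1 IC50 24 h the GCLC call was lost (adjusted p = 0.0521), and without replicate 1 of G-1 1 µM 24 h or of G-1 IC50 24 h the TXNRD1 call was lost (adjusted p = 0.0799 and 0.0526).

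Between DMSO 72 h and DMSO 24 h, 0 of the 8 genes passed the threshold in limma, against 2.79% of all probes, with 2 genes under an unadjusted p of 0.05. These were TXNRD1, 0.22 log2 higher at 72 h (limma adjusted p = 0.113), and TXN, with a difference of -0.13 (limma adjusted p = 0.260). They were also the 2 genes whose arrays did not overlap, against 11.1% of all probes.

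The other genes of the pathway were taken in 4 lists from general knowledge. The first holds 15 genes that control NRF2, of which 13 were tested. With G-1 1 µM, 4 of them were higher and 1 lower than in DMSO at 72 h, against 64.3% of all probes called in either direction. At 24 h, 3 of them were higher and 2 lower, against 29.1%. MAFF, a small MAF protein, was the only one past a fold change of 2, with a log2 difference of 1.58 at 72 h (SE 0.14, limma adjusted p = 9.42e-09) and 1.09 at 24 h (SE 0.14, limma adjusted p = 4.07e-05). KEAP1, named after its values were seen because it is the inhibitor of NRF2, differed by 0.05 log2 at 72 h (SE 0.07, limma adjusted p = 0.596) and 0.16 at 24 h (limma adjusted p = 0.0984).

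Of 27 glutathione genes tested, 8 were higher and 12 lower at 72 h, against 64.3% of all probes called in either direction. At 24 h, 7 were higher and 0 lower, against 29.1%, a share not split by direction here. The medians were -0.09 log2 at 72 h and 0.10 at 24 h. The largest rises at 72 h were in CHAC1, CHAC2 and SLC3A2. CHAC1 and CHAC2 encode gamma-glutamylcyclotransferases that cleave glutathione, and were 1.66 (SE 0.18, limma adjusted p = 7.51e-08) and 1.27 log2 higher (SE 0.22, limma adjusted p = 3.99e-05). SLC3A2, the heavy chain of the cystine importer, was 1.00 log2 higher (SE 0.12, limma adjusted p = 6.72e-07). CHAC1 and SLC3A2 were also higher at 24 h (1.20 log2, limma adjusted p = 1.00e-04, and 0.41 log2, limma adjusted p = 0.0173). CHAC2 differed there by -0.11 (limma adjusted p = 0.745).

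The largest falls were in GSTA4, a glutathione transferase for lipid aldehydes (-1.26 log2, SE 0.11, limma adjusted p = 3.01e-09), GGT1, the surface enzyme that splits extracellular glutathione (-1.12, SE 0.17, limma adjusted p = 6.09e-06), and OPLAH, which recycles 5-oxoproline (-1.06, SE 0.10, limma adjusted p = 2.60e-08). At 24 h, none of these 3 passed the threshold, with differences of -0.25, -0.12 and 0.08 log2. The effect of 1 µM differed between durations for GSTA4 (-1.02 log2, limma adjusted p = 3.60e-05), GGT1 (-1.0, limma adjusted p = 0.00266) and OPLAH (-1.14, limma adjusted p = 8.30e-06).

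Of 23 genes of thioredoxin and peroxide removal, 7 were higher and 9 lower at 72 h, against 64.3% of all probes called. At 24 h, 5 were higher and 2 lower, against 29.1%. Past a fold change of 2 at 72 h were SESN3 (-1.74 log2, SE 0.10, limma adjusted p = 1.60e-11) and SESN2 (1.23, SE 0.13, limma adjusted p = 5.47e-08), sestrins that moved in opposite directions, and TXNIP, which binds and inhibits thioredoxin (-1.57, SE 0.23, limma adjusted p = 5.48e-06). All 3 had changed in the same direction at 24 h, by -0.53, 0.58 and -0.94 log2 (limma adjusted p = 6.85e-04, 0.00244 and 0.00491).

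CAT, which encodes catalase, was the gene of this list that G-1 IC50 changed. At 72 h, it was 0.61 log2 higher than DMSO with G-1 IC50 (SE 0.12, limma adjusted p = 0.00828) and lower than DMSO with G-1 1 µM (-0.43 log2, SE 0.12, limma adjusted p = 0.00264). Its mean was 2.98 ± 0.16 in DMSO, 3.59 ± 0.16 in G-1 IC50 and 2.55 ± 0.19 in G-1 1 µM (SD, n = 4).

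Of 28 other NRF2 targets tested, 6 were higher and 15 lower at 72 h, against 64.3% of all probes called. At 24 h, 7 were higher and 3 lower, against 29.1%. The medians were -0.28 log2 at 72 h and 0.07 at 24 h. ABCC2, an exporter of conjugates, was 1.04 log2 higher at 72 h (SE 0.19, limma adjusted p = 6.27e-05) and ABHD4 was lower (-1.03, SE 0.15, limma adjusted p = 7.13e-06). The UGT1A6 probe was above background on all DMSO 72 h arrays and on none of G-1 1 µM 72 h, so it was at least 1.85-fold lower there, as the DMSO mean against the lowest signal that counts as detected. The probe was tested only through the groups in which it was above background, so no p is given. The counts and medians of this list still include it, among the lower genes at 72 h. UGT1A genes share exons, so this probe may measure others of the family.

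AKR1C1, an aldo-keto reductase, was 0.75 log2 higher than DMSO with G-1 IC50 at 72 h (SE 0.12, limma adjusted p = 0.00163) by its brighter probe, while its other probe gave 0.46 (limma adjusted p = 0.310). At 1 µM, 72 h, the 2 probes gave -0.28 (limma adjusted p = 0.0386) and -0.79 (limma adjusted p = 2.43e-04). The AKR1C genes are nearly identical in sequence, so the source of both signals is uncertain.

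**Figure D3:**
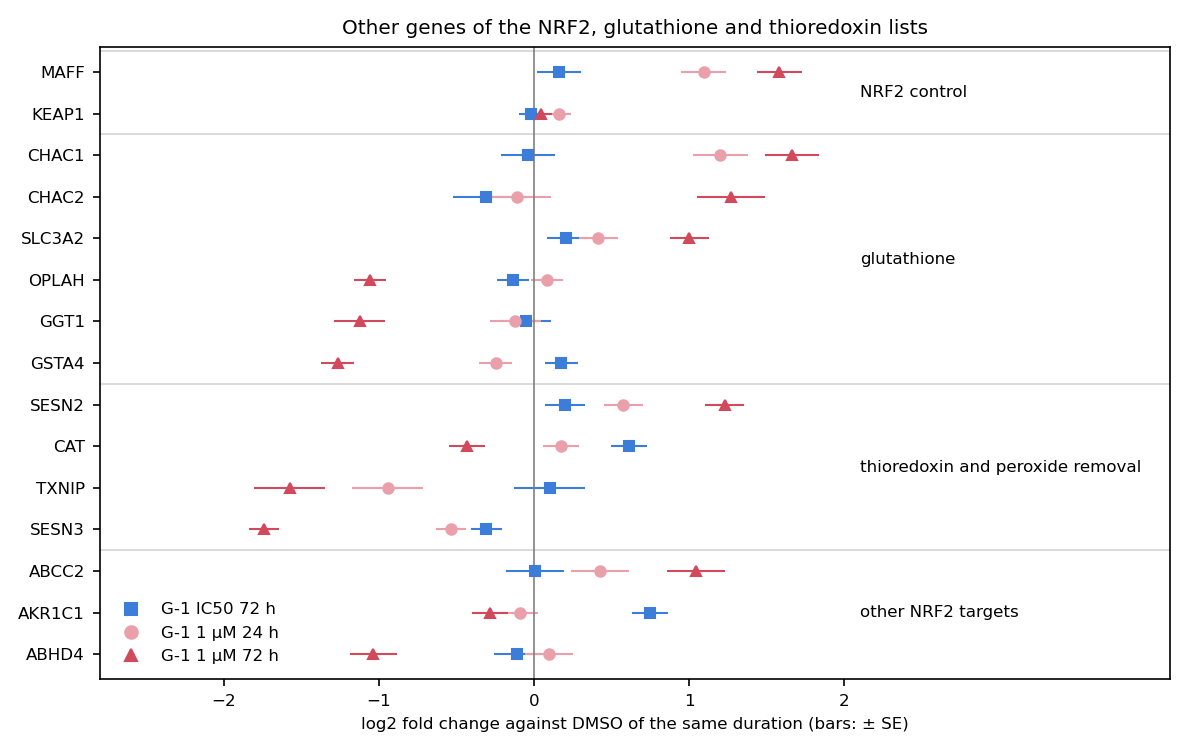
Log2 fold change against DMSO of the same duration (x axis, bars ± SE) for named genes of the 4 lists (y axis), with G-1 IC50 72 h as squares, G-1 1 µM 24 h as circles and G-1 1 µM 72 h as triangles (UGT1A6, for which only a bound exists, is left out). MAFF, CHAC1, SESN2, SLC3A2 and ABCC2 lie to the right at both durations of 1 µM. GSTA4, GGT1 and OPLAH lie far left at 72 h alone, and CAT and AKR1C1 lie to the right with G-1 IC50.

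Each list is described by counts against the 64.3% (72 h) and 29.1% (24 h) of all probes called, and nothing is claimed as particular to it. Marker levels also moved with the groups. The summed level of the 8 glioma or astroglial markers, on a linear scale where 1 is the 75th percentile of the array, was 845.1 to 979.1 in DMSO 72 h and 652.5 to 735.9 in G-1 1 µM 72 h. That of the 4 measured microglia or leukocyte markers was 0.316 to 0.395 and 0.664 to 0.832, where CD14 was above background and the other 3 were not. The summed levels were 0.602 to 0.678 and 0.228 to 0.324 for the 4 endothelial markers, 14.1 to 16.2 and 16.0 to 18.9 for the 4 epithelial markers (KRT8 and KRT18 above background), and 5.72 to 7.89 and 3.81 to 4.64 for the 5 neuronal markers (RBFOX3, SNAP25 and GAP43 above background, SYP and STMN2 on no array). Their part in the results was not tested.

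Correlations between members over the 24 arrays are given as a description, since the arrays share groups, slides and sessions. HMOX1 and SRXN1 had r = 0.877, SRXN1 and TXNRD1 0.778, and NQO1 and GCLC 0.709, while HMOX1 and NQO1 had -0.712. After each group's mean was removed, the same pairs had 0.07, 0.40, 0.14 and -0.02. Among all pairs, only GCLM with GCLC (-0.770) and with SRXN1 (-0.543) and HMOX1 with OSGIN1 (0.523) passed 0.5 in size within groups.

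Among 14227 other genes with a symbol, those with the most similar pattern over the 24 arrays (highest Pearson correlation of the log2 signal) were MMP1 (0.937) and SPCS3 (0.933) for HMOX1, and RP9P (0.969) and TATDN2 (0.969) for SRXN1. They were KRCC1 (0.940) and SAP18 (0.936) for NQO1, and DBT (0.954) and DUSP28 (0.953) for GCLC. For TXN they were GSTO1 (0.910), a glutathione transferase of the omega class, and HOXD-AS2 (0.909), and for TXNRD1 MAST2 (0.907) and PRMT1 (0.892). For OSGIN1 they were SMG9 (0.893) and KIFC3 (0.884), and for GCLM DHX9-AS1 (0.846) and LINC01602 (0.802).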

How the data were processed

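RNA of U251 cells from 6 groups of 4 replicates was hybridized to 1-colour Agilent 8x60K arrays. The study describes the replicates as independent biological ones. The deposited intensity of each spot came from Feature Extraction (12.1.1.1 per the file headers, 10.7.3.1 per the labels), background-subtracted and detrended on each array, with 0 or 1 flags. The authors also deposited a log2 table per probe, whose median absolute difference from the values used here was 0.0141. Groups follow the sample titles, since a duration entry in the labels contradicts them in 2 groups (1 µM at 72 h and IC50 at 24 h), and labels and paper state different DMSO concentrations. The paper names GeneSpring GX for the statistics, but the normalization and filter are not given in the sources used here.

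Outlier spots were left out, log2 intensities of the spots of a probe were averaged, and the array's 75th percentile was subtracted. Of 58118 probes with values on all arrays, 22970 were tested, those that every array of some group showed well above background (19133 on all 24). RefSeq accessions named 35032 of 58201 probes. Replicates correlated at 0.990 to 0.996. Limma 3.58.1 (R 4.3.3) fitted 6 group means to all 24 arrays, and p-values were Benjamini-Hochberg adjusted over all probes tested and called under 0.05. Scripts were tested on simulated data. The number of arrays limits the precision. In bulk RNA, fewer cells of a type and less RNA per cell cannot be told apart.

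Named list genes were those with the largest absolute fold change above 2 at 1 µM, 72 h (up to 6 a list), and those called with G-1 IC50, each by its brightest probe. Same-numbered arrays deviated together from their group means with correlations over 0.1 in all 4 pairs for G-1 1 µM against DMSO (0.235 to 0.422) and against G-1 IC50 (0.286 to 0.450) at 24 h, a pairing taken from the data, as the labels state none. The members and lists were chosen with earlier results of these data known. Alternatives were quantile normalization, the 50th percentile, normexp (offset 50), other filters, the deposited table, other fits and blocks, the methods' t-test (unadjusted p under 0.05 with a fold change above 2, and Benjamini-Hochberg), and each array left out. The slide as a random block, differences within slides and the comparison of durations within G-1 1 µM were added after seeing the data. FBXW11, AKR1C2, TRIM16L and CD68 had no probe by symbol, and levels were not compared between probes.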

Additional observations from a re-analysis of the deposited data

Results flagged for a closer look

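The effect of G-1 1 µM differed between 72 h and 24 h by the interaction term in limma for HMOX1 (1.28 log2, adjusted p = 1.87e-05) and SRXN1 (0.35 log2, adjusted p = 0.00116). In 3 of 48 groups of 4 arrays, 1 array stood apart from the other 3 by Dixon's criterion, which chance gives in about 1 group of 20. These were HMOX1 in G-1 IC50 72 h replicate 3 (4.67, the others 5.10 to 5.16), NQO1 in G-1 IC50 72 h replicate 4 (1.41, the others 1.04 to 1.10) and GCLM in G-1 IC50 24 h replicate 1 (2.38, the others 2.05 to 2.09). Without replicate 3 of G-1 IC50 72 h, no member was called in G-1 IC50 against DMSO at 72 h.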

How the results depend on the processing

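Counts below are of the 8 members tested. With an absolute fold change above 2 as well, the calls of G-1 1 µM against DMSO numbered 0 at 24 h and 1 at 72 h, of 1 µM against G-1 IC50 0 and 1, of the 1 µM effect between durations 1, and within 1 µM between durations 1. The methods' t-test, unadjusted with that fold change, gave 0, 1, 0 and 1 for the first 4. For 1 µM against G-1 IC50 at 24 h the count was 1 with the 50th percentile, 1 with the arrays of the 2 groups alone and 1 by the methods' t-test with Benjamini-Hochberg adjustment. The 50th percentile left 1 call between durations (HMOX1), and 0 and 1 genes without overlap for G-1 IC50 at 24 h and 72 h. It moved the median of all probes to -0.10 and -0.12 log2 in 1 µM against G-1 IC50 at 24 h and 72 h, from 0.02 and -0.01. The cause of these shifts was not tested. On every array the 50th percentile, at -5.20 to -4.68 log2 relative to the 75th, lay under the lowest signal that counted as detected. That lowest signal was -4.39 to -3.16 log2.

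Leaving out each array in turn gave 2 to 4 and 5 to 7 calls for 1 µM against DMSO at 24 h and 72 h, 2 to 4 and 6 to 7 against G-1 IC50, 2 to 2 between durations and 3 to 3 within 1 µM, and 0 to 0 in the comparisons of G-1 IC50 and of DMSO. GCLM in 1 µM against DMSO at 72 h gained a call without DMSO 72 h replicate 4 (adjusted p = 0.0496), and OSGIN1 in 1 µM against G-1 IC50 at 72 h without G-1 1 µM 72 h replicate 1 (adjusted p = 0.0253) or DMSO 24 h replicate 2 (adjusted p = 0.0494). TXN within 1 µM gained one with quantile normalization (0.13 log2, adjusted p = 0.0462).

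In the other comparisons examined for pairing, not all 4 pairs of same-numbered arrays had a correlation over 0.1. There the replicate block added TXNRD1 in DMSO 72 h against 24 h (1 call, adjusted p = 0.0369), GCLM in 1 µM against G-1 IC50 at 72 h (adjusted p = 0.0393), and no call elsewhere beyond the NQO1 calls given above. Every array correlated best with its own number in G-1 IC50 against DMSO at 72 h (4 of 4), a hint from the data.

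Signs turned in uncalled values near 0. With a slide block these were NQO1 for G-1 IC50 at 24 h (-0.024, random block -0.0043) and GCLM in DMSO 72 h against 24 h (-0.017). For GCLM under 1 µM at 24 h, values were -0.026 with quantile normalization, -0.036 with the 50th percentile, -0.038 with normexp and -0.022 with the random block. With normexp, GCLC was -0.018 for G-1 IC50 at 24 h and -0.063 in DMSO 72 h against 24 h, where SRXN1 was 0.068 (0.0016 with quantile normalization), and the GCLM interaction of G-1 IC50 was -0.034. With the 50th percentile, 1 µM against G-1 IC50 at 24 h gave -0.029 for HMOX1, -0.016 for TXN and -0.058 for OSGIN1. Leaving out arrays gave, for G-1 IC50 at 24 h, -0.10 to 0.089 (HMOX1), -0.13 to 0.13 (NQO1), -0.044 to 0.12 (GCLC) and -0.015 to 0.035 (TXN). For 1 µM at 24 h it gave -0.013 to 0.18 (HMOX1) and -0.077 to 0.075 (GCLM), and against G-1 IC50 -0.013 to 0.14 (OSGIN1). In DMSO 72 h against 24 h it gave -0.039 to 0.17 (GCLM), -0.064 to 0.075 (GCLC) and -0.049 to 0.0049 (SRXN1). The interactions ranged from -0.11 to 0.10 (GCLM, G-1 IC50) and -0.21 to 0.016 (OSGIN1, 1 µM), and TXNRD1 within 1 µM from -0.015 to 0.094. HMOX1, SRXN1, NQO1, GCLC and TXN kept their direction and call in 1 µM against DMSO at 72 h under every alternative run for single genes.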
